A study of Mus musculus with 12 samples.

Results

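Interferon beta, its receptor, the transcription factors that carry its signal and the genes it switches on were followed across c-kit+ and CD44+ cells of mouse bone marrow cultures kept with or without 17β-estradiol. The set was a list of 38 genes, and a gene counted as measured where a probe set of the array named that gene alone in the platform annotation; its brightest probe set over the 12 arrays stood for it. By this rule 35 of the 38 genes were measured, among 18193 genes on the array. The other 3 were Isg15, Ifi44 and Gbp5. Of the 35 genes, 21 had 1 probe set and 14 had several.

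The cells came from primary whole bone marrow cultures of female C57BL/6 mice aged 6 weeks. Cultures received 1 nM 17β-estradiol, a dose the labels call physiological, for 1 week, or were left untreated as controls, and total RNA was taken from c-kit+ cells, labelled as stem cells, and CD44+ cells, labelled as stromal cells. With 2 fractions and 2 culture conditions there were 4 groups of 3 Affymetrix arrays. The labels do not say whether the replicates were separate cultures or animals, or whether both fractions came from the same cultures, so the p-values reflect how far these arrays vary, which may be technical variation only.

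Type I interferons are secreted proteins that cells release on sensing viral nucleic acid or other danger signals. Interferon beta binds a receptor made of Ifnar1 and Ifnar2, whose kinases activate STAT factors, Stat2 among them. A complex that holds Stat2 and Irf9 binds the interferon-stimulated response element (ISRE) before antiviral genes such as the Ifit, Oas and Mx families. Transcription of the interferon beta gene itself is driven by IRF factors together with NF-kB. In bone marrow, macrophages and dendritic cells are among the sources of type I interferon, and haematopoietic stem cells respond to it.

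The labels of the fractions were set against their defining genes first. Kit, the receptor that c-kit+ cells are sorted on, had a mean log2 value of 3.97 in c-kit+ control, 3.94 in c-kit+ estradiol, 4.01 in CD44+ control and 3.93 in CD44+ estradiol arrays. These lie within the range of 5 of 6 measured Y-linked genes, 3.22 to 4.30 as means over the arrays, a gauge of background since the mice were female; the last, Sry, had 6.22. Cd44 was high in all groups, at 11.93, 12.14, 12.12 and 12.33 in the same order. All 10 macrophage and monocyte markers were measured, and their mean log2 value per array ran from 11.34 to 12.02 over the 4 groups, while the mean of 6 stem and progenitor markers ran from 5.14 to 5.65. The 7 neutrophil markers averaged 4.43 to 5.20 and the 6 lymphoid markers 4.40 to 4.71. The 10 stromal markers, Cd44 included, averaged 6.29 to 6.9 on c-kit+ arrays and 7.22 to 8.29 on CD44+ arrays. On the CD44+ arrays the macrophage markers averaged 11.34 to 11.67. These values go against the stem cell label of the c-kit+ arrays, and do not bear out stromal cells alone in the CD44+ arrays. The fractions are named below only by their sort. In such bulk RNA, more cells of a type and more RNA per cell cannot be told apart.

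Estradiol cultures had higher levels of Ifnb1, Irf1, Rsad2 and Oasl1, each by 1.7-fold to 1.74-fold as the mean of both fractions. These 4 of 35 genes (11.43%) passed in the comparison that averages the estradiol effects of both fractions (limma, adjusted p under 0.05 over all genes), where 0.951% of all genes passed. In c-kit+ cells alone 1 gene passed, Ifnb1 (2.86% of the 35, against 0.181% of all genes). In CD44+ cells 2 passed, Ifnb1 and Irf1 (5.71%, against 0.291% of all genes). All these calls were toward higher levels under estradiol. The count in CD44+ cells was 0 without CD44+ control array 2 or 3 or CD44+ estradiol array 2 or 3. It was 1 without CD44+ estradiol array 1, where Rsad2 passed in place of Ifnb1 and Irf1. It was also 1 without c-kit+ estradiol array 2 (Ifnb1), and 4 without c-kit+ control array 3 (Gbp3 and Rsad2 added). The median log2 difference over the 35 genes was 0.28 in c-kit+ cells, 0.27 in CD44+ cells and 0.35 for the mean of both, against 0.016, 0.01 and 0.015 over all genes. Of the 35 genes, 32 had a difference above 0 in c-kit+ cells (91.4%, against 55.1% of all genes) and 31 in CD44+ cells (88.6%, against 53.2%). The set was chosen with earlier results of these data known. In level, 32 of its 35 genes lay at or above the median gene. The shares of the set and of all genes, here and below, are therefore descriptions and not a test of the set.

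The upstream sequence of the 4 genes that passed is shown because their start regions differ in their matches to the motifs defined below. Each is taken from RefSeq's promoter table (mouse build GRCm38.p6) and printed 5′ to 3′ on the gene's strand up to the gene's first annotated base, 250 bases for Ifnb1, Irf1 and Rsad2. For Oasl1 it is 153 bases, since the table's start lies 97 bases inside the gene. Capitals mark matches on either strand to 3 motifs: the ISRE core (GAAA and GAAA with any 2 bases between), the gamma-activated site (TTC and GAA with any 3 bases between), and the NF-kB consensus. Ifnb1 lies on the minus strand of chromosome 4 (chr4:88522795-88523044 for the bases shown), Irf1 on the plus strand of chromosome 11 (chr11:53769764-53770013), Oasl1 on the plus strand of chromosome 5 (chr5:114922990-114923142) and Rsad2 on the minus strand of chromosome 12 (chr12:26456453-26456702).
Ifnb1: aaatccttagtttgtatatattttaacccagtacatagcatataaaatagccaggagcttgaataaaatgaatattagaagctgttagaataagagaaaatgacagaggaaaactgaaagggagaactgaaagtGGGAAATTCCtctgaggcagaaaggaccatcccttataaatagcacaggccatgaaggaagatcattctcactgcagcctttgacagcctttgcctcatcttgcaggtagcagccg
Irf1: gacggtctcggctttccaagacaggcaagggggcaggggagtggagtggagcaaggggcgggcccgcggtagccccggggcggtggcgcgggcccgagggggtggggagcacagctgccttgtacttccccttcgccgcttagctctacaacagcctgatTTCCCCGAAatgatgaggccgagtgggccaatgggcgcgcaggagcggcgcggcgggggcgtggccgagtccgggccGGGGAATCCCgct
Oasl1: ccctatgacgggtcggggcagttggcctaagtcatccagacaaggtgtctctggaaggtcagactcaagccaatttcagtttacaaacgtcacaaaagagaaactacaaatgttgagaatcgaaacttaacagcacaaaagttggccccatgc
Rsad2: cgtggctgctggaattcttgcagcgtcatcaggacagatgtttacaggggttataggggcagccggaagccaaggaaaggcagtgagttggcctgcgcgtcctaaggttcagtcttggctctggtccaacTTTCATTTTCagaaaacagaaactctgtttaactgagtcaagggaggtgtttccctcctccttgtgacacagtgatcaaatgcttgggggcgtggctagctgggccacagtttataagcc
In Ifnb1 the capitals are an NF-kB match 116 to 107 bases before the start. In Irf1 they are a gamma-activated site 90 to 82 bases before the start and an NF-kB match 13 to 4 bases before it. The Oasl1 bases shown hold no match to the 3 motifs; 2 overlapping NF-kB matches 14 to 4 bases before the table's start lie inside the annotated gene. In Rsad2 an ISRE core, read on the opposite strand, lies 120 to 111 bases before the start. A match describes letters only and is not a site shown to be bound. The ISRE core used is strict, so bases without capitals can hold similar letters at another spacing. The Ifnb1 bases do so shortly before the NF-kB match (gaaaactgaaa).

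Ifnb1 encodes interferon beta, the ligand (gene body chr4:88522025-88522794, GRCm38.p6). Its log2 values were 4.92, 5.04 and 4.71 on the c-kit+ control arrays and 5.83, 5.76 and 5.73 on the c-kit+ estradiol arrays. On the CD44+ arrays they were 4.94, 4.70 and 4.72 for control and 5.51, 5.42 and 5.53 for estradiol. Every estradiol array stood above every control array of both fractions. The difference was 0.88 ± 0.11 (SE) in c-kit+ cells, 1.84-fold (limma adjusted p = 0.0049), and 0.70 ± 0.11 in CD44+ cells, 1.63-fold (adjusted p = 0.0127). As the mean of both fractions it was 0.79 ± 0.08 (adjusted p = 0.000142). These are low values: the mean of Ifnb1 over the arrays was 5.23, below the median gene level of 5.95, although above 5 of the 6 Y-linked genes. The call in c-kit+ cells was lost with the 6 c-kit+ arrays fitted alone (adjusted p = 0.0999). The call in CD44+ cells was lost without CD44+ control array 2 (0.0919) or 3 (0.0786) and without CD44+ estradiol array 1 (0.056), 2 (0.0535) or 3 (0.0965).

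The receptor chains, which every responding cell needs, differed less. Ifnar1 had group means of 9.26 and 9.54 in c-kit+ control and estradiol arrays, and a mean difference over both fractions of 0.23 (95% interval -0.01 to 0.47). Ifnar2 differed by 0.01 (interval -0.35 to 0.37), with overlapping groups in each fraction. Neither passed. A second, dimmer Ifnar1 probe set pointed the other way, at -0.19. For Ifnar2 the other, dimmer probe sets gave 0.26 and 0.1.

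Irf1 is a transcription factor induced by interferons and by NF-kB, and activates many interferon-stimulated genes. Its log2 values were 12.73, 12.29 and 12.78 on the c-kit+ control arrays, 13.03, 13.16 and 13.34 on the c-kit+ estradiol arrays, 12.66, 12.30 and 12.03 on the CD44+ control arrays, and 13.21, 13.37 and 13.27 on the CD44+ estradiol arrays. The control and estradiol groups did not overlap in either fraction, and CD44+ control arrays 2 and 3 were among the lowest of all. The difference was 0.96 ± 0.17 in CD44+ cells, 1.94-fold (limma adjusted p = 0.0295), 0.58 ± 0.17 in c-kit+ cells (adjusted p = 0.445), and 0.77 ± 0.12 as their mean, 1.7-fold (adjusted p = 0.00528). The call in CD44+ cells did not survive leaving out c-kit+ estradiol array 2 (adjusted p = 0.0588), CD44+ control array 2 (0.14) or 3 (0.165), or CD44+ estradiol array 1 (0.0862), 2 (0.172) or 3 (0.159).

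The other 5 transcription factors did not pass in an estradiol comparison. Irf7, the factor that amplifies interferon production, had 8.95, 9.95 and 8.73 on c-kit+ control arrays and 9.26, 10.34 and 10.60 on c-kit+ estradiol arrays. Its groups overlapped in both fractions, and its mean difference of 0.65 had an interval of -0.01 to 1.31. Stat2 and Irf9, parts of the ISRE-binding complex, had mean differences of 0.33 (interval -0.03 to 0.69) and 0.14 (-0.04 to 0.32). Irf2, which can repress Irf1 targets, had 0.07, and Irf8, a factor of macrophage and dendritic cell development, had 0.02.

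Rsad2 encodes viperin, an antiviral enzyme of the endoplasmic reticulum. Its log2 values were 12.31, 12.23 and 12.57 on the c-kit+ control arrays, 12.96, 13.08 and 13.47 on the c-kit+ estradiol arrays, 11.97, 11.78 and 11.75 on the CD44+ control arrays, and 12.32, 12.72 and 12.86 on the CD44+ estradiol arrays. Estradiol arrays lay above control arrays within each fraction. The difference was 0.80 ± 0.16 in c-kit+ cells (limma adjusted p = 0.102) and 0.79 ± 0.16 in CD44+ cells (adjusted p = 0.0783), and their mean of 0.80 ± 0.12, 1.74-fold, passed (adjusted p = 0.0034). With the replicate number as a block over all 12 arrays, the CD44+ difference had a limma adjusted p of 0.0358. Equal-numbered CD44+ arrays deviated together, but this block also pairs the c-kit+ arrays, where not all equal-numbered pairs did. The other 2 Rsad2 probe sets gave mean differences of 1.07 and 0.46.

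Oasl1 belongs to the 2'-5' oligoadenylate synthetase-like proteins and restrains Irf7 translation. It read 6.81, 7.07 and 6.64 on the c-kit+ control arrays, 7.44, 7.75 and 7.98 on the c-kit+ estradiol arrays, 6.51, 6.67 and 6.96 on the CD44+ control arrays, and 7.11, 7.35 and 7.80 on the CD44+ estradiol arrays. Again the groups did not overlap in either fraction. The difference was 0.88 ± 0.19 in c-kit+ cells (limma adjusted p = 0.143) and 0.70 ± 0.19 in CD44+ cells (0.311), and their mean of 0.79 ± 0.14, 1.73-fold, passed (0.0122). The 4 genes Ifnb1, Irf1, Rsad2 and Oasl1 passed in the mean of both fractions in each of the 12 fits that leave out 1 array.

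**Figure D1:**
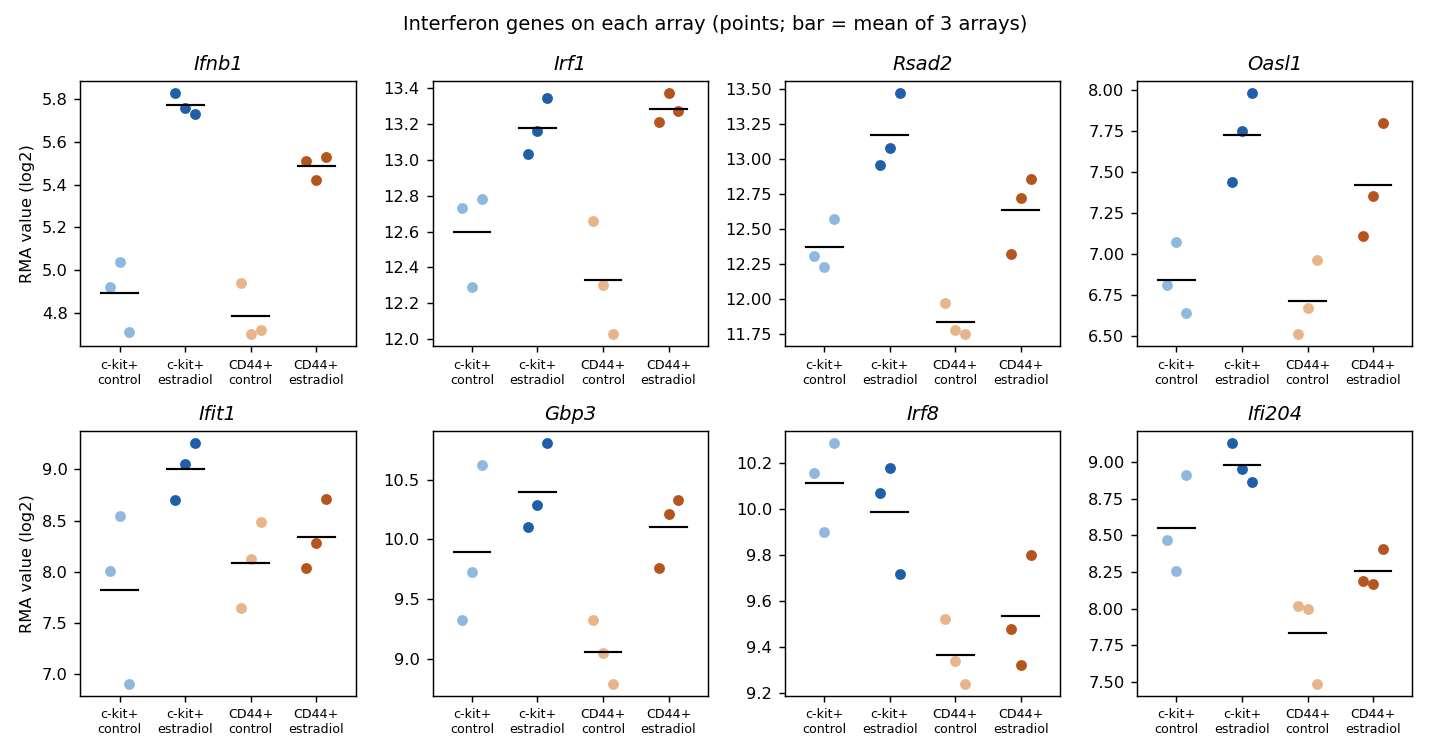
Deposited log2 RMA values of 8 interferon genes on each of the 12 arrays, with 1 point per array in replicate order, bars at group means, and a separate vertical scale for each gene that does not start at 0. Estradiol arrays of Ifnb1, Irf1, Rsad2 and Oasl1 lie above the control arrays of the same fraction, while those of Ifit1 do so in c-kit+ cells only, and those of Gbp3 and Ifi204 in CD44+ cells only.

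The other genes grouped as effectors, those of the Isg15 pathway included, did not pass in an estradiol comparison, although 14 of the 17 had mean differences above 0. Ifit1, which binds viral RNA lacking host cap methylation, had 8.01, 8.55 and 6.91 on c-kit+ control arrays and 8.70, 9.05 and 9.26 on c-kit+ estradiol arrays. These groups did not overlap, and c-kit+ control array 3 was far below the others; the difference of 1.18 ± 0.34 did not pass (limma adjusted p = 0.458). On the CD44+ arrays Ifit1 had 7.65, 8.13 and 8.49 for control and 8.04, 8.28 and 8.71 for estradiol, which overlapped, with a difference of 0.25. The related Ifit2 and Ifit3 had mean differences of 0.45 and 0.38. Oasl2 and Isg20, an exonuclease, had 0.43 and 0.40, and Ifi204, a DNA sensor, had 0.43. Bst2 (tetherin, which holds budding virions), Usp18 (which removes Isg15 and damps receptor signalling) and Parp14 had 0.38, 0.35 and 0.40. Smaller differences were measured for Xaf1 (0.27), Oas3 (0.20), Ifi35 (0.18), Oas2 (0.15) and Mx2 (0.04), and values below 0 for Trim25 (-0.01), Eif2ak2 (-0.01) and Mx1 (-0.20). C57BL/6 mice carry a defective Mx1 allele. The probe set chosen mattered for Eif2ak2, the double-stranded RNA kinase PKR, whose dimmer probe sets gave 0.52 and 0.22, and for Parp14, whose second gave 0.96 and which passed for the mean of both fractions when its probe sets were averaged.

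The RNA sensors, guanylate-binding proteins and antigen-processing genes had positive mean differences, none of which passed. Ifih1 (Mda5), a sensor of long double-stranded RNA, had 10.81, 11.18 and 10.88 on c-kit+ control and 11.27, 11.25 and 11.67 on c-kit+ estradiol arrays. On CD44+ arrays it had 10.71, 10.85 and 10.56 for control and 10.87, 10.99 and 11.45 for estradiol. The groups did not overlap in either fraction, and the mean difference was 0.42 ± 0.12 (limma adjusted p = 0.198). Dhx58, the related helicase Lgp2, had 0.38.

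Gbp3, a GTPase that acts on membranes of intracellular pathogens, had 9.32, 9.05 and 8.79 on CD44+ control and 9.76, 10.21 and 10.33 on CD44+ estradiol arrays, which did not overlap. On c-kit+ arrays it had 9.32, 9.73 and 10.62 for control and 10.10, 10.29 and 10.81 for estradiol, which overlapped through control array 3. Its difference was 1.05 ± 0.29 in CD44+ cells (limma adjusted p = 0.309), the largest of the 35 there, and 0.51 ± 0.29 in c-kit+ cells (0.999). Gbp2 had a mean difference of 0.67 (interval 0.21 to 1.13, adjusted p = 0.302). The peptide transporter gene Tap1 and the immunoproteasome subunits Psmb8 and Psmb9 had 0.21, 0.19 and 0.15.

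**Figure D2:**
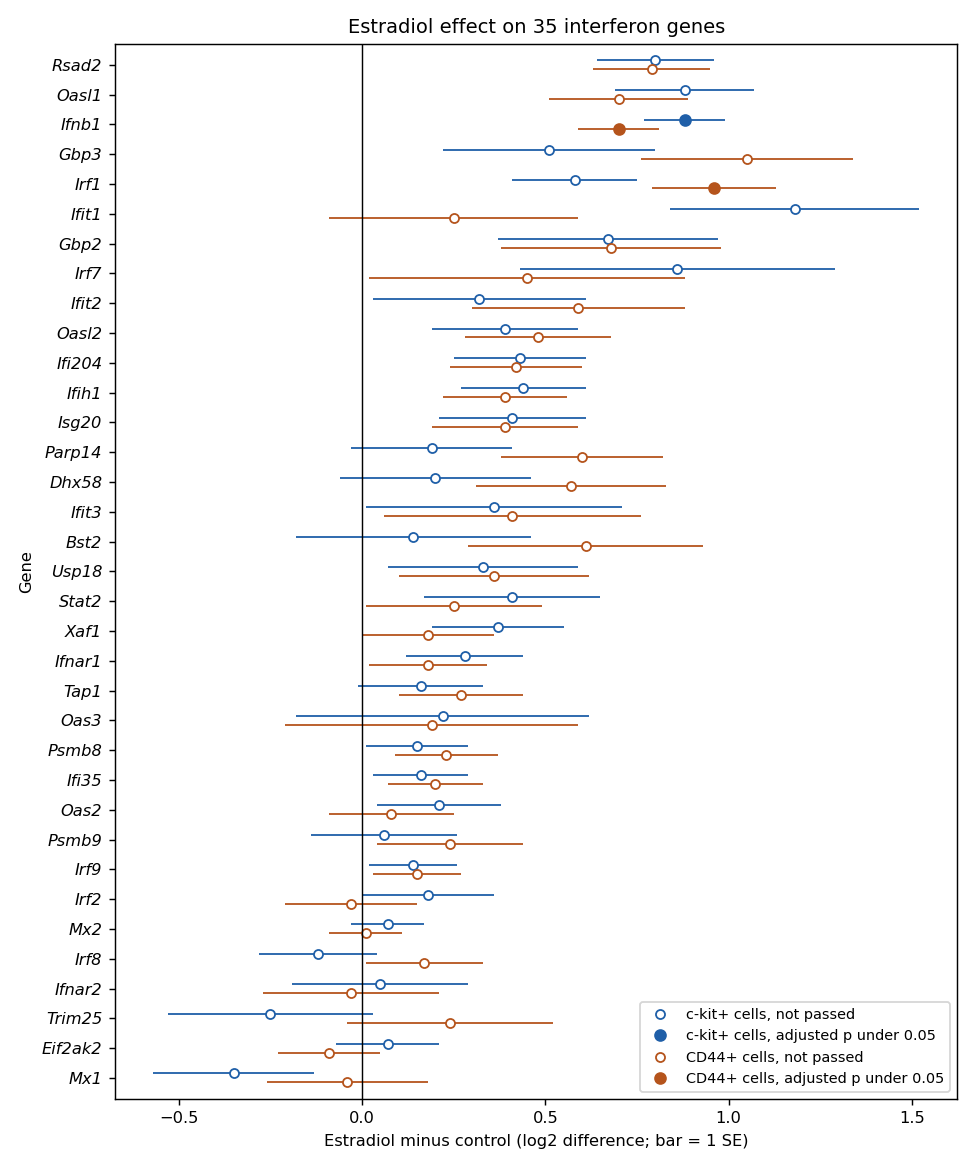
Estradiol minus control log2 difference of each of the 35 measured genes in c-kit+ (blue) and CD44+ (brown) cells, with bars of 1 SE and filled points for an adjusted p under 0.05. Differences run from -0.35 (Mx1) to 1.18 (Ifit1) in c-kit+ cells and from -0.09 (Eif2ak2) to 1.05 (Gbp3) in CD44+ cells, and the filled points are Ifnb1 in both fractions and Irf1 in CD44+ cells.

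Genes whose groups did not overlap were also counted, with the same limit from how the set was chosen. In c-kit+ cells 8 of the 35 genes (22.9%) had all 3 estradiol arrays above all 3 control arrays, against 5.34% of all genes: Ifnb1, Irf1, Ifit1, Oasl1, Oasl2, Rsad2, Xaf1 and Ifih1. In CD44+ cells 12 (34.3%) did, against 6.75% of all genes: Ifnb1, Irf1, Isg20, Oasl1, Rsad2, Ifi35, Ifi204, Parp14, Ifih1, Dhx58, Gbp2 and Gbp3. In both fractions 5 did (14.3%, against 1.49% of all genes), namely Ifnb1, Irf1, Oasl1, Rsad2 and Ifih1. In neither fraction did a gene of the set have all its estradiol arrays below its controls. The share of all genes that did is not given here, so nothing is read from this about the set.

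The arrays of a group were not alike. The median deviation of the 35 genes from their own means over 12 arrays was -0.14, -0.09 and -0.07 on the c-kit+ control arrays and 0.04, 0.29 and 0.46 on the c-kit+ estradiol arrays. On the CD44+ arrays it was -0.30, -0.19 and -0.27 for control and -0.13, 0.11 and 0.35 for estradiol, while over all genes it stayed between -0.04 and 0.05. In each fraction every estradiol array was above every control array, with estradiol array 1 nearest the controls. Estradiol array 1 was the lowest of its group for 25 of 35 genes in c-kit+ cells (71.4%, against 36.9% of all genes) and for 28 in CD44+ cells (80.0%, against 38.4%). Estradiol array 3 was the highest for 20 genes in c-kit+ cells (57.1%, against 46.7%) and for 28 in CD44+ cells (80.0%, against 36.0%). Equal-numbered estradiol arrays of the fractions also deviated together over all genes (correlations of 0.447, 0.192 and 0.312), so the 6 estradiol arrays may not be independent. CD44+ control and estradiol arrays of equal number did so too (0.303, 0.368 and 0.322). The control arrays of the fractions did not all do so (0.175, 0.122 and -0.208). What arrays of equal number share was not tested, and the main fit paired no arrays. With arrays of 1 treatment and number as a random block, a setting added after the data were seen, the same 4 genes passed as the mean of both fractions, with adjusted p from 0.000325 for Ifnb1 to 0.0205 for Oasl1.

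**Figure D3:**
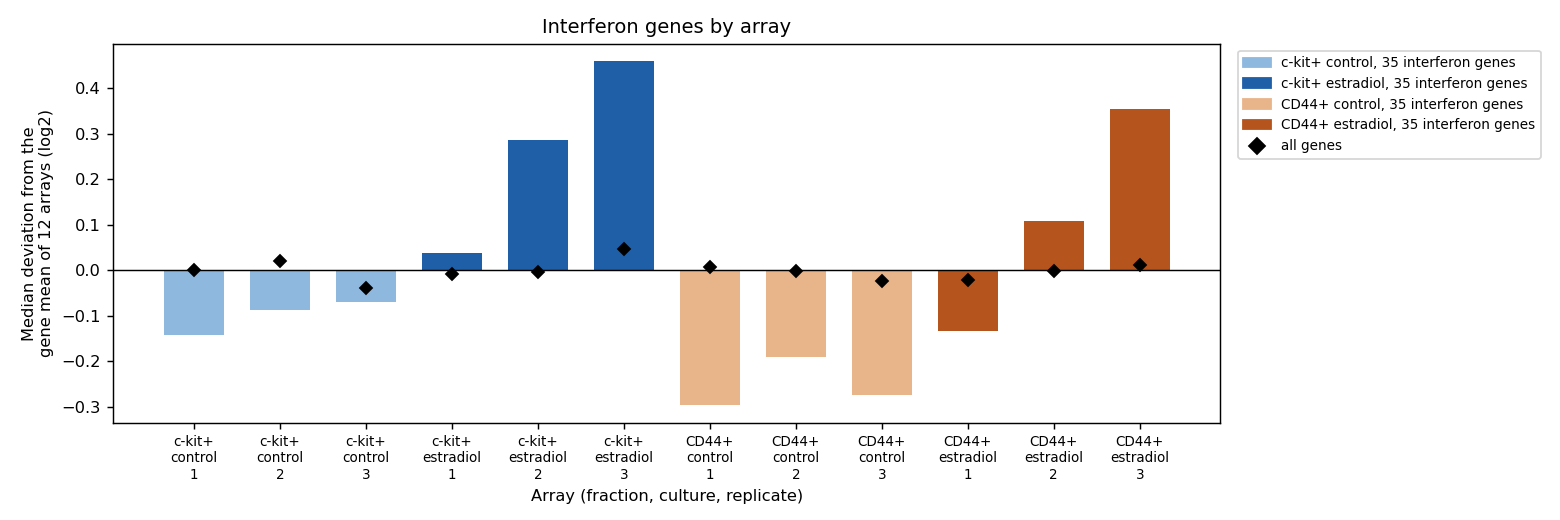
Median over the 35 genes of each array's log2 deviation from the gene's mean over 12 arrays (bars, coloured by group), with the same median over all genes as diamonds. The bars of estradiol arrays 1 stand at 0.037 in c-kit+ and -0.133 in CD44+ cells, below those of estradiol arrays 2 and 3 of the same fraction.

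RNA measures varied with the same arrays. The excess of the 3' over the 5' Gapdh control probe set, which grows as RNA is less complete or amplification shorter, was 5.35, 5.23 and 4.62 (log2) on c-kit+ control arrays and 6.17, 4.59 and 4.23 on c-kit+ estradiol arrays. It was 4.14, 3.94 and 2.83 on CD44+ control arrays and 4.31, 3.32 and 3.50 on CD44+ estradiol arrays. Array 1 had the largest excess in each group, and every c-kit+ control array had a larger excess than every CD44+ control array. Differences between the fractions in control cultures therefore cannot be fully told apart from this excess. With this excess as a covariate, another setting added after the data were seen, the same 4 genes passed for the mean of both fractions. Without estradiol array 1, the median difference of the 35 genes was 0.46 in both fractions (0.463 in c-kit+ and 0.455 in CD44+ cells).

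Markers of other cells were set beside the estradiol differences. None of the 10 macrophage markers passed, with a median difference of 0.07 for the mean of both fractions, and their summed linear level was 71970 to 73670 on c-kit+ control, 69820 to 75740 on c-kit+ estradiol, 55140 to 67530 on CD44+ control and 62660 to 69190 on CD44+ estradiol arrays. Of 9 dendritic cell markers 1 passed, Cd83, an activation marker of dendritic cells and macrophages, with a mean difference of 1.05 (limma adjusted p = 0.00299). The summed level of these 9 was 3956 to 6256 and 7940 to 8501 on c-kit+ control and estradiol arrays, and 3854 to 5880 and 8452 to 8836 on the CD44+ ones. Most of this was Cd83: the median difference of the 9 was 0.06, and without Cd83 the other 8 summed to 794.8 to 1087, 994.5 to 1497, 1516 to 2177 and 1973 to 2668 in the same order of groups. None of the 10 stromal markers passed, at sums of 4152 to 5230, 5181 to 6493, 6880 to 9129 and 8948 to 11700 in the order of groups above. Cd44 is 1 of these 10 and made up much of the sums, at mean log2 values of 11.93, 12.14, 12.12 and 12.33. The part of any of these cell markers in the interferon genes was not tested.

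No gene of the set had an estradiol effect that differed between the fractions by the test (limma, 0 of 35 at adjusted p under 0.05, and 0% of all genes). At an unadjusted p under 0.05, 0 of the 35 and 296 of all genes differed. The smallest p-values belonged to Ifit1, Irf1 and Gbp3. The effect on Ifit1 was larger in c-kit+ cells by 0.93 (95% interval -0.12 to 1.97), that on Irf1 was larger in CD44+ cells, with c-kit+ minus CD44+ at -0.38 (-0.89 to 0.13), and that on Gbp3 likewise at -0.54 (-1.42 to 0.34). For Ifnb1 the effects differed by 0.18 (-0.15 to 0.51), for Oasl1 by 0.18 (-0.41 to 0.77) and for Rsad2 by 0.00 (-0.50 to 0.50). Each of these intervals includes 0 and leaves room for a sizeable difference. For Ifit1, Irf1, Gbp3 and Ifnb1 most of that room lies in 1 direction.

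Between the fractions of control cultures, Irf8 was higher in c-kit+ than in CD44+ cells. It was the 1 gene of 35 (2.86%) that passed, where 2.3% of all genes did. Its log2 values were 10.16, 9.90 and 10.29 on c-kit+ control arrays and 9.52, 9.34 and 9.24 on CD44+ control arrays, without overlap. The estradiol arrays had 10.07, 10.18 and 9.72 in c-kit+ and 9.48, 9.32 and 9.80 in CD44+ cells, which overlapped. The control difference was 0.75 ± 0.16, 1.68-fold (limma adjusted p = 0.0239). A second Irf8 probe set gave 0.07, and with the mean of both probe sets the difference was 0.41 (adjusted p = 0.17). The call was also lost with the Gapdh covariate (0.247), with the 6 control arrays alone (0.0614), and without c-kit+ control array 1 (0.0879) or 3 (0.0595) or CD44+ control array 2 (0.069) or 3 (0.125). The Gapdh excess itself did not overlap between these 2 control groups, as given above.

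Other members differed between the fractions without passing. Ifi204 had 8.47, 8.26 and 8.91 on c-kit+ control and 8.02, 8.0 and 7.49 on CD44+ control arrays, a difference of 0.71 ± 0.18 (limma adjusted p = 0.0559); with arrays of 1 treatment and number as a random block it was 0.0394, and with the mean of each gene's probe sets, where Irf8 was lost, Ifi204 was the 1 gene of the set that passed (0.0476). With the Gapdh covariate, where Irf8 was lost too, Bst2 was the 1 gene that passed. Rsad2 differed by 0.54 (adjusted p = 0.132) and Ifit2 by 0.94 (0.145). Irf8, Ifit2, Mx1, Rsad2, Ifi204, Bst2, Parp14 and Gbp3 had all c-kit+ control arrays above all CD44+ control arrays, 8 of 35 (22.9%) against 7.41% of all genes. Eif2ak2 alone lay the other way (2.9%, against 8.33%). The median difference was 0.18, against 0.005 over all genes; it was 0.486 with the Gapdh covariate and 0.113 without c-kit+ control array 2, where Ifi204 passed beside Irf8. Of 10 macrophage markers 3 were higher in c-kit+ control cells (C1qb, Fcgr1 and Mertk), and of 10 stromal markers 4 were lower (Col1a1, Col1a2, Cxcl12 and Pdgfrb). Of 9 dendritic cell markers 2, H2-Ab1 and H2-Eb1, were lower. Their part in the Irf8 difference was not tested.

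**Figure D4:**
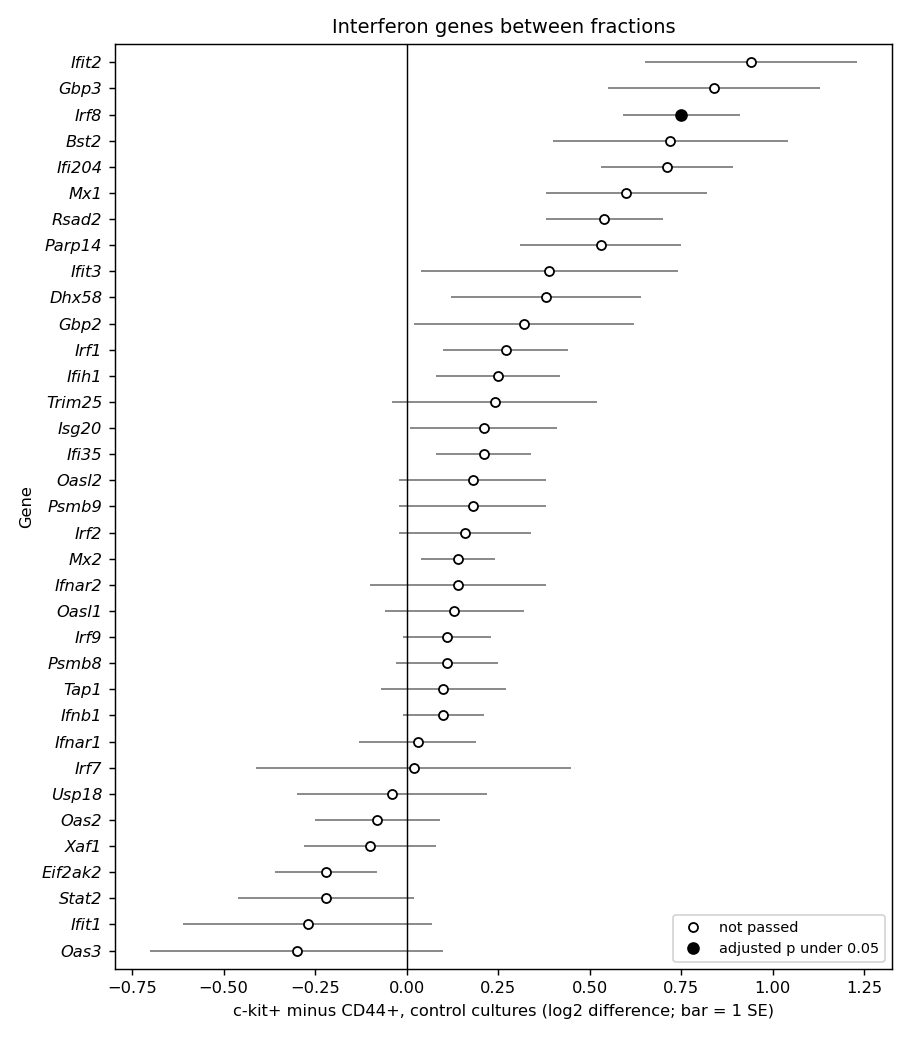
c-kit+ minus CD44+ log2 difference of the 35 measured genes in control cultures, with bars of 1 SE and a filled point for an adjusted p under 0.05. Differences run from -0.30 (Oas3) to 0.94 (Ifit2), 28 of 35 are above 0, and the filled point is Irf8.

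Beyond the set, 56 other genes of the interferon pathway were listed, from interferon gamma and its receptors through adaptors and chemokines to antigen presentation, and 50 were measured. Cxcl10, a chemokine that draws activated T cells, rose in both fractions. It had 10.01, 9.91 and 9.76 on c-kit+ control and 11.18, 11.60 and 11.58 on c-kit+ estradiol arrays, and 9.94, 9.60 and 9.42 on CD44+ control and 11.06, 11.26 and 11.36 on CD44+ estradiol arrays. The groups were well apart, and the difference was 1.57 ± 0.11 for the mean of both fractions, 2.96-fold (limma adjusted p = 1.47e-05). Ifitm1, which blocks virus entry at membranes, rose in c-kit+ cells by 0.91 ± 0.16 (adjusted p = 0.0442) and as the mean of both fractions by 0.85 ± 0.11 (0.0017), with 0.79 in CD44+ cells (0.0726). The other 48 did not pass in any estradiol comparison. Of the 50, 2 passed in c-kit+ cells, 1 in CD44+ cells and 2 for the mean. Of all genes, 0.181%, 0.291% and 0.951% passed in the same order. The median of the 50 was 0.16 in c-kit+ cells, 0.20 in CD44+ cells and 0.17 for the mean. Over all genes it was 0.016, 0.01 and 0.015. None of the 50 passed for the difference of effects or between the fractions, where 0% and 2.3% of all genes did.

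The promoter sequences of the set were compared with those of all genes. RefSeq's table for GRCm38.p6 held 250 bases before to 50 after a start for 28 of the 35 genes (not Mx1, Mx2, Oas2, Usp18, Ifi204, Parp14 and Dhx58). For 10 of the 28 the table's starts all lay inside the annotated gene, so part of the window is then gene sequence. On either strand, the ISRE core was found for 11 of the 28 (39.3%), against 3.99% of 27025 genes. The gamma-activated site was found for 11 (39.3%, against 9.55%), the NF-kB consensus for 9 (32.1%, against 9.55%), and the full estrogen response element (GGTCA and TGACC with any 3 bases between) for 0, against 0.07%. Matches of different motifs could overlap, and overlapping matches of 1 motif counted once per gene. These shares describe a list chosen for interferon genes, and are not a result about the estradiol cultures.

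The 11 genes with an ISRE core were Bst2, Eif2ak2, Gbp2, Gbp3, Ifih1, Ifit1, Ifit3, Irf2, Oas3, Rsad2 and Stat2, and among them Rsad2 passed for estradiol. Some windows around the core are shown to let the letters be compared with the Rsad2 sequence above. Capitals mark the core on either strand, and distances are from the table's start, which lies 28 bases inside the gene for Gbp3 and 25 for Oas3.
Ifit1, 104 bases before the start: gcttcagTTTCACTTTCcagtctc
Ifit1, 85 bases before the start: gtctcagTTTCAGTTTCtcactgc
Gbp2, 59 bases before the start: cttttagTTTCACTTTCactgtct
Gbp3, 45 bases before the start: gacacagTTTCAGTTTCTATTTCccagatc
Bst2, 130 bases before the start: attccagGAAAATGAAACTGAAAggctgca
Oas3, 75 bases before the start: gggaggaGAAAACGAAAgtgaagg
Their positions are chr19:34640778-34640801 and chr19:34640797-34640820 (plus strand) for Ifit1, chr3:142620597-142620620 (plus) for Gbp2, chr3:142559992-142560021 (plus) for Gbp3, chr8:71537580-71537609 (minus) for Bst2 and chr5:120777718-120777741 (minus) for Oas3. Gbp3 and Bst2 each hold 2 overlapping cores. Ifnb1, Irf1 and Oasl1 held no such core in this window, which does not show that they lack similar elements of another spacing.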

How the data were processed

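Total RNA of 12 samples in 4 groups of 3 was amplified into biotin-labelled cRNA for Affymetrix mouse arrays, per the labels' protocols. The authors deposited log2 values made with RMA, which corrects background, normalizes by quantiles and summarises each probe set, per the submitters' processing notes; the sources used here give no version. Values ran from 2.47 to 14.81 with array medians of 4.75 to 4.84, and precision is limited by the number of arrays. Of 45101 probe sets, 64 were controls, 34945 named 1 gene in the platform annotation, 932 several and 9160 none; those naming 1 gene gave 18193 genes, each by its brightest probe set.

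limma 3.58.1 in R 4.3.3 fitted 1 mean per group over all 12 arrays, with empirical Bayes moderation; p-values were adjusted by Benjamini-Hochberg across the 18193 genes, with calls made below 0.05. Standard errors and 95% intervals are those of the fit, and the script was tested on simulated data. Differences are estradiol minus control in each fraction, their mean, their difference, and, in control cultures, c-kit+ minus CD44+. The members and lists were chosen with earlier results of these data known. Array values were printed for members that passed in any comparison and the 3 of smallest p in each; those of Irf7, Ifih1 and Cxcl10 were added after their values were seen.

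Replicate numbers were taken to pair arrays where all 3 equal-numbered pairs correlated above 0.1 in their deviations from group means. Within CD44+ cells this held (0.303, 0.368 and 0.322), while c-kit+ arrays (0.345, 0.092 and 0.253) and the control arrays of the fractions (0.175, 0.122 and -0.208) did not. Alternatives were other probe set, level filter, normalization, moderation, array weight, block and threshold settings, fits of the compared arrays alone, and leaving out each array; the Gapdh covariate and the random block were added after the data were seen. Promoters came from RefSeq. Python 3.11.15 with pandas 2.3.3 and matplotlib 3.10.9 made tables and figures.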

Additional observations from a re-analysis of the deposited data

How the results depend on the processing

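No value that passed changed direction; the median of the set for the difference of effects, -0.011, ran from -0.14 to 0.112 when 1 array was left out. For the mean of both fractions, Ifnb1, Irf1, Rsad2 and Oasl1 passed in every fit in which they were tested, and the number of genes passing was 4 to 6 over the fits that leave out 1 array, 5 with the replicate block (Oasl2 added) and 3 with the filter on level, which removes Ifnb1. In c-kit+ cells the number passing, 1, was 0 with the filter on level, 0 with the 6 arrays alone and 3 with the replicate block (Oasl1 and Rsad2 added, each at adjusted p = 0.0467), although c-kit+ numbers did not meet the pairing rule; the median of the set was 0.195 to 0.463 when 1 array was left out. In CD44+ cells the number passing, 2, was 1 with the filter on level, 7 with array weights, 3 with the replicate block and 0 to 4 when 1 array was left out; the median was 0.183 to 0.455. Between the fractions the number passing, 1, was 3 with array weights, 2 with the replicate block, 2 with the random block, 0 with the 6 arrays alone, 2 at an adjusted p of 0.1 and 0 to 2 when 1 array was left out, and the median of 0.178 was 0.486 with the Gapdh covariate. The 1 gene passing was Ifi204 in place of Irf8 with probe sets averaged, and Bst2 with the Gapdh covariate. For the difference of effects 0 passed under each setting. The filter and the arrays alone test fewer genes or samples; the other causes were not tested. The block changed no other call among the genes given array by array. Ifnb1, Mx1 and Mx2 lay below the median gene level, where signal over background limits what the arrays can show.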
